A study of Arabidopsis thaliana with 9 samples.

Results

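GRF3-only regions inside pseudogenes are stretches of the Arabidopsis thaliana genome where libraries of the tagged factor GRF3 had peaks, GRF1 had no consensus region, and the summit lay inside a gene span annotated as a pseudogene. For each factor, peaks of its 3 libraries that overlapped by at least 1 bp were merged, and a merged stretch with peaks from at least 2 libraries was a consensus region. Of 2203 GRF3 consensus regions, 1819 (82.6%) overlapped none of the 1147 GRF1 consensus regions, and 656 of these 1819 (36.1%) had the summit, the peak's highest point, inside a span with the biotype pseudogene or transcribed_pseudogene. These 656 are the members described here, out of 3350 consensus regions of both factors. They were chosen by the peak calls of both factors, so their presence in GRF3 lists, their absence from the GRF1 consensus and their place in a pseudogene are given as values without a test.

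The series used chromatin immunoprecipitation sequencing (ChIP-seq), in which an antibody pulls down a protein with its attached DNA, which is then sequenced. Whole plants of strain Ws, 2 weeks old, grown on MS medium, carried 35S:GRF3-GFP (3 libraries), 35S:GRF1-GFP (3 libraries) or, as the control construct, 35S:GFP (3 libraries, not analysed here). All 9 samples were precipitated with an anti-GFP antibody. In all 3 genotypes the green fluorescent protein (GFP) was expressed from 35S, a viral promoter active in most plant tissues. The tagged factors could therefore be made beyond the cells and levels of the native genes, but no expression level is given. A peak from whole plants does not tell strong binding in few cells from weak binding in many; the 2 cannot be told apart.

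GRF stands for growth-regulating factor, a family of plant transcription factors that act with GIF coactivators and promote growth of leaves and other organs. A pseudogene is a decayed copy of a gene, or of a mobile element, that no longer encodes a working protein. In Arabidopsis such copies gather around the centromeres, where protein-coding genes are sparse and most chromatin is compact, methylated and rich in transposable elements. The labels do not say how the authors treated reads that map to several places, and its part in the values below was not tested. The annotation used here is of strain Columbia, whereas the plants were Ws.

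Facts of the libraries bear on every value below. The 3 GRF3 lists held 2258, 2301 and 5944 peaks in replicates 1, 2 and 3, and the 3 GRF1 lists held 1410, 1122 and 1878. No list gives read counts, so depth is unknown. Of the members, 193 (29.4%) had peaks in all 3 GRF3 libraries, 339 in replicates 2 and 3 only, 101 in replicates 1 and 3 only and 23 in replicates 1 and 2 only. GRF3 replicate 3, the longest list, had a peak at 96.5% of members, replicate 2 at 84.6% and replicate 1 at 48.3%. For the other GRF3-only regions these shares were 92.6%, 76.3% and 74.9%, so the low share in replicate 1 was seen in members and not in the others. Peaks in all 3 libraries were found at 43.8% of the others and 38.6% of all GRF3-only regions. Peaks in replicates 2 and 3 only were found at 51.7% of members and 25.1% of the others. Without replicate 3 there were 221 members, without replicate 2 there were 292 and without replicate 1 there were 532. With a fold of at least 4 there were 15, or 3.84% of the GRF3-only regions left.

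Members lay on all 5 chromosomes and crowded around the part of each with the fewest protein-coding genes. Centromere positions were not in the files, so the 1 Mb window with the least protein-coding sequence stood for the centromere on each chromosome. Protein-coding spans covered 1.91% to 5.60% of these windows, against 49.6% to 56.5% of whole chromosomes. The median member was 1.18 Mb from the centre of its window (quartiles 0.491 and 1.83 Mb), and 544 of 656 members (82.9%) were within 2.5 Mb of it, a zone that made up 21.0% of the chromosomes. Pseudogene spans are themselves concentrated there: 69.4% of the 4843 spans lay in the zone, at a median distance of 1.53 Mb.

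Chromosome 5 held 148 members, chromosome 1 held 137, chromosome 2 held 129, chromosome 3 held 123 and chromosome 4 held 119. Set against the pseudogene spans of each chromosome, members numbered 15.6 per 100 spans on chromosome 5, 14.7 on chromosome 1, 14.3 on chromosome 4, 12.3 on chromosome 2 and 11.4 on chromosome 3. Chromosome 4 members lay closest to the window, at a median of 0.657 Mb, with 89.1% of them within 2.5 Mb. The median distance was longest on chromosome 3, at 1.43 Mb, with 82.9% within 2.5 Mb, while the share within 2.5 Mb was lower on chromosomes 1 (78.1%) and 2 (79.1%). On chromosomes 1, 2 and 3 more members were left of the window (76, 86 and 78) than right of it (61, 43 and 45), while on chromosomes 4 and 5 more were right (69 and 84) than left (50 and 64). These sides depend on where the stand-in window fell, and its centre may lie off the true centromere. On chromosome 3 the fullest 0.5 Mb bin, with 22 members, lay 0.5 to 1 Mb left of the window's centre. On chromosomes 4 and 5 the fullest bins held 29 members each and touched the centre.

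**Figure D1:**
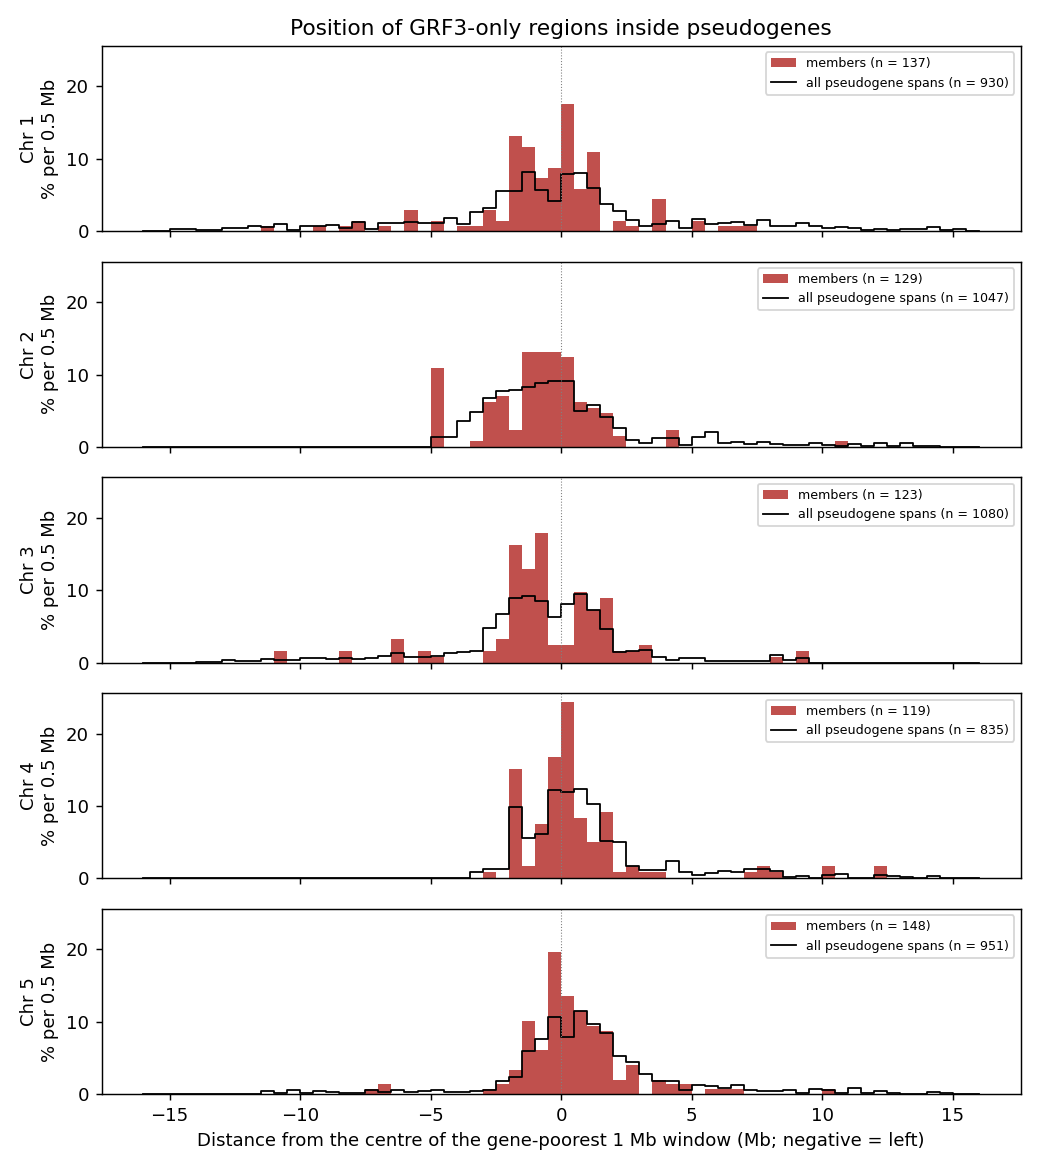
Share of members (red bars) and of all pseudogene spans (black line) per 0.5 Mb bin, by signed distance in Mb from the centre of the gene-poorest 1 Mb window, for chromosomes 1 to 5. Both gather towards the window, except that on chromosome 3 the 2 bins touching 0 hold only 3 members each; 82.9% of members and 69.4% of spans lie within 2.5 Mb, and chromosome 2 has a separate group of members at its left end.

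Summed over the 5 chromosomes, members grew denser towards the window more steeply than the pseudogenes did. Single chromosomes departed from this, chromosome 3 most clearly. Within 0.5 Mb of the centre there were 34.6 members per Mb, from 0.5 to 1 Mb 24.4, from 1 to 2.5 Mb 16.6, from 2.5 to 5 Mb 2.89 and beyond 5 Mb 0.623. Over the same zones pseudogene spans covered 40.8%, 37.3%, 25.7%, 6.15% and 1.78% of the sequence. Per Mb of pseudogene span, members numbered 84.9, 65.4, 64.5, 46.9 and 35.1. The share of spans that held a GRF3-only summit went the same way: 16.8%, 12.7%, 10.97%, 7.23% and 5.43%. On chromosome 3 the 2 bins of 0.5 Mb that touch the centre held 3 members each, although they held 68 and 87 pseudogene spans. The bins next to them held 22 members (92 spans) on the left and 12 (102 spans) on the right. On chromosome 1 the bins touching the centre held 12 members (39 spans) on the left and 24 (73 spans) on the right. The bins from 0.5 to 1 Mb there held 10 (53 spans) and 8 (75 spans), fewer per span than the next bins outward, with 16 (76 spans) and 15 (56 spans). Over all zones and chromosomes 525 of 4843 pseudogene spans held a GRF3-only summit (10.8%), against 637 of 27444 protein-coding spans (2.32%).

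Strength and width of members did not follow this gradient. The median fold, the enrichment that the authors' peak caller gave each peak, was 2.51, 2.46, 2.501, 2.55 and 2.35 in the 5 zones from the centre outward. The median width was 499, 482, 494, 495 and 449 bp. The share of members found in all 3 libraries was 30.1%, 26.2%, 30.1%, 33.8% and 25%.

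Near the window, GRF3-only and GRF1-only regions differed in how often they fell inside pseudogenes. Within 2.5 Mb, 544 of 825 GRF3-only regions (65.9%) had the summit inside a pseudogene span, against 37 of 307 GRF1-only regions (12.1%), where spans covered 31.0% of the sequence. Beyond 2.5 Mb the shares were 112 of 994 (11.3%) and 8 of 454 (1.76%), with 2.87% covered. In the innermost 0.5 Mb both factors had many regions of their own, 241 for GRF3 and 185 for GRF1, yet 71.8% of the GRF3-only and 9.19% of the GRF1-only summits were inside pseudogenes. Over the whole genome 45 of 761 GRF1-only regions (5.91%) were inside pseudogenes; those 761 were 66.3% of GRF1 consensus regions, and their summits reached 0.929% of all pseudogene spans. Regions of both factors lay between: of 384 GRF3 regions that overlapped a GRF1 region, 107 (27.9%) had the summit inside a pseudogene span. These shares come from the contrast that chose the members and are not tested.

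**Figure D2:**
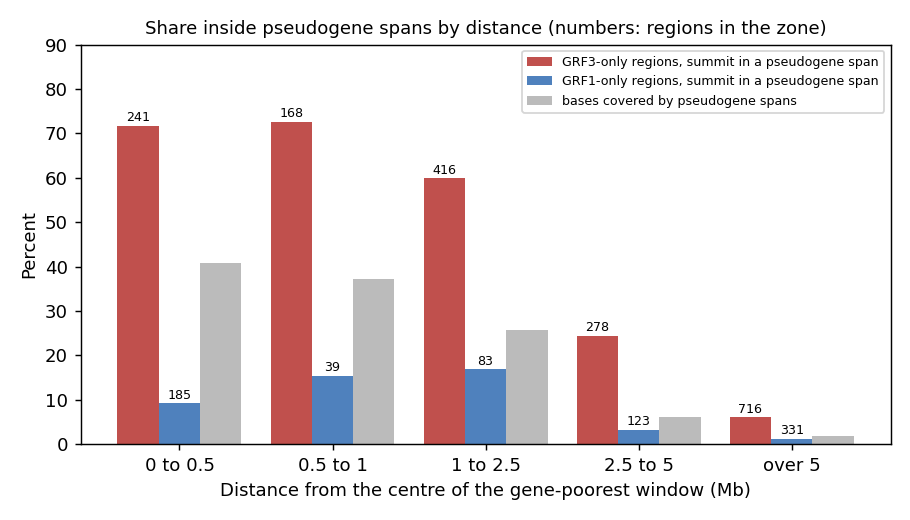
Percent of GRF3-only regions (red) and of GRF1-only regions (blue) with the summit inside a pseudogene span, and percent of bases covered by such spans (grey), in 5 zones of distance from the gene-poorest window; numbers above the bars are regions in the zone. The red bar stands above the grey one in every zone, 71.8% against 40.8% in the innermost, and the blue bar stands below the grey one, at 9.19%.

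The same contrast can be read in each library's own full list, before any consensus. In the GRF3 libraries 21.0%, 35.2% and 33.6% of all summits were inside pseudogene spans (29.95% ± 7.8, SD, n = 3), against 17.6%, 5.44% and 25.3% in the GRF1 libraries (16.1% ± 10.04, SD, n = 3). The groups overlapped, since GRF1 replicate 3 was above GRF3 replicate 1. The mean difference of 13.8 points was 8.48 without GRF1 replicate 2, and 3.04 for peaks with a fold of at least 4. Among peaks within 2.5 Mb of the window the shares were 49.9%, 59.0% and 63.1% for GRF3 (57.3% ± 6.8) and 26.4%, 17.7% and 40.3% for GRF1 (28.1% ± 11.4), and the groups did not overlap. The share of peaks in that zone was itself alike on average, 41.9% ± 9.1 for GRF3 and 43.1% ± 19.9 for GRF1 (SD, n = 3), with GRF1 replicate 2 at 20.1% far below the other GRF1 libraries. Beyond 2.5 Mb the GRF3 libraries had 7.54%, 11.8% and 10.1% and the GRF1 libraries 6.55%, 2.34% and 8.04% of summits inside pseudogenes, with overlap.

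**Figure D3:**
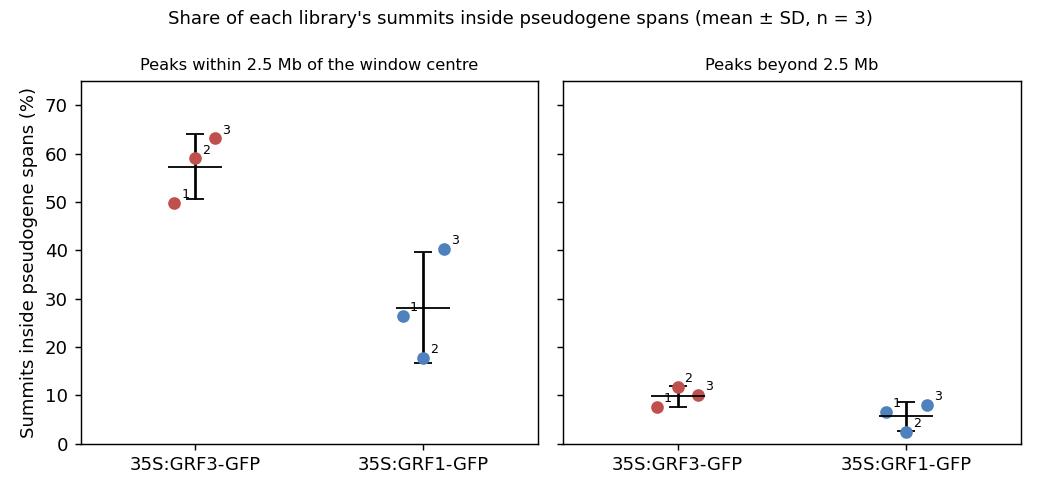
Share of summits inside pseudogene spans (percent) in each library, numbered by replicate, for peaks within and beyond 2.5 Mb of the gene-poorest window; bars give mean and SD of 3 libraries. Within 2.5 Mb the lowest 35S:GRF3-GFP library (49.9%) is above the highest 35S:GRF1-GFP library (40.3%), and beyond it the groups overlap.

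Absence from the GRF1 consensus did not mean absence from every GRF1 list. A peak of at least 1 GRF1 library overlapped 163 of 656 members (24.8%), against 126 of 1163 other GRF3-only regions (10.8%) and 15.9% of all GRF3-only regions. Replicate 3, the longest GRF1 list, accounted for 140 of these overlaps, replicate 1 for 21 and replicate 2 for 3. The GRF1 folds there were low, with medians of 1.93, 1.74 and 1.83 in those lists. Members in all 3 GRF3 libraries had a single-library GRF1 peak in 75 of 193 cases (38.9%), and members in 2 libraries in 88 of 463 (19.0%). Only AT2G11120 (chr2:4409519-4410512, GRF3 folds 2.80 and 2.98 in replicates 2 and 3) was overlapped by peaks of 2 GRF1 libraries, with folds of 1.87 and 1.95 in replicates 1 and 3, which did not overlap each other into a consensus region.

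Members were weaker than the other GRF3-only regions. Their mean fold over the libraries that had a peak ranged from 1.31 to 9.77, with a median of 2.496 and quartiles of 2.21 and 2.81. Other GRF3-only regions had a median of 2.65 and an upper quartile of 7.26. Among these, the 643 with the summit inside a protein-coding span had a median of 2.41, against 2.496 for members. These means pool whichever libraries had a peak, and replicate 1 had one at 48.3% of members and 74.9% of the other GRF3-only regions. The part of that mix in so small a gap was not tested. A mean fold of 4 or more was reached by 75 of the 643 (11.7%). A mean fold of 4 or more was reached by 15 members (2.29%) and by 367 of the 1163 others (31.6%). Since fold is comparable only inside 1 list, peaks were ranked there from 0 to 100. Members sat at a median percentile of 38.4, 43.2 and 61.6 in GRF3 replicates 1, 2 and 3, and the other GRF3-only regions at 65.1, 66.7 and 69.3. The difference averaged -19.3 points (SD 10.2, n = 3 libraries) and had the same sign in 3 of 3 (exact permutation test over libraries, two-sided, p = 0.25, the smallest that 3 libraries allow). The difference was -7.00 points when the others were limited to the 194 regions farther than 1 kb from any protein-coding span, a comparison chosen after seeing the data. It was -44.3 points without GRF3 replicate 3 and -39.4 points among regions found in all 3 libraries.

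Width told the libraries apart more than it told members from the rest. Merged member regions were 223 to 3023 bp wide, with a median of 492 bp and quartiles of 368 and 681 bp; other GRF3-only regions had a median of 432 bp. Inside single lists the member peaks had median widths of 310, 327 and 459 bp in replicates 1, 2 and 3, and the others 374, 380 and 416 bp. Members were thus narrower in replicates 1 and 2, by 64 and 53 bp, and wider in replicate 3, by 43 bp (mean difference -24.7 bp, SD 58.9, n = 3; exact permutation test, two-sided, p = 0.5). Without replicate 2 the sign turned, with members 1 bp wider, and they were 37.3 bp wider when only folds of 4 or more were kept. Among the 193 members with a peak in every library, replicate 3 had the widest peak in 161 (83.4%) and the highest fold in the same number, and median widths were 339, 385 and 523 bp. The 509 others in all 3 libraries (43.8% of the others, against 38.6% of all GRF3-only regions) measured 403, 405 and 430 bp.

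**Figure D4:**
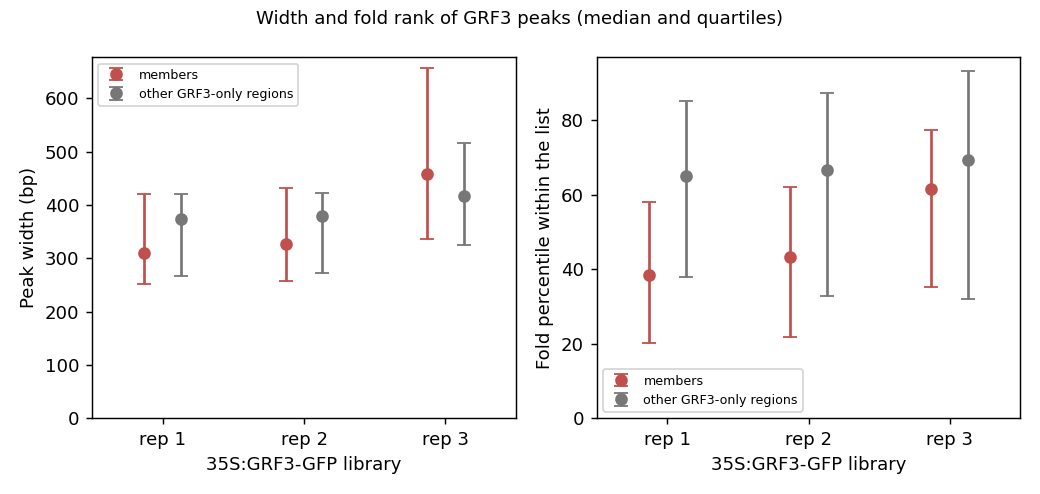
Width (bp, left) and within-list fold percentile (right) of peaks in members (red) and in other GRF3-only regions (grey) in each 35S:GRF3-GFP library; points are medians and bars the quartiles. Members are narrower in replicates 1 and 2 (310 and 327 bp) and wider in replicate 3 (459 bp), and rank lower in all 3 libraries.

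Broad members came mostly from GRF3 replicate 3. A merged width of at least 1000 bp was found for 75 members (11.4%) and for 55 of the others (4.73%). Single peaks that broad numbered 1 of 317 member peaks in replicate 1, 7 of 555 in replicate 2 and 62 of 633 in replicate 3. The broadest member lay in AT3G42057 (chr3:14247612-14250634), where replicate 3 called 1 peak of 3023 bp, replicate 2 called 2 peaks, the wider 288 bp, and replicate 1 called 1 of 262 bp. Folds there were 1.82, 1.90 and 2.31 in replicates 1, 2 and 3, and the summits of the libraries were 1289 bp apart. The next broadest were in AT1G51175 (2590 bp), AT4G20730 (2440 bp), AT3G32092 (2068 bp) and AT2G09910 (2066 bp). The 5 narrowest, 223 to 233 bp, in AT2G16140, AT3G22238, AT3G42890, AT1G27671 and AT3G32895, were all found in replicates 1 and 2 only.

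Libraries agreed on the summit at many members and not at others. The distance between the outermost summits had a median of 49.5 bp; it was at most 50 bp in 332 members (50.6%) and over 300 bp in 87. The summit lay in the outer 25% of the merged width on either side in 135 members (20.6%), against 16.5% of other GRF3-only regions. In the 193 members found in all 3 libraries, no peak edge had the same position in every library, while this occurred in 17 of the 509 others.

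Members lay in 525 pseudogenes, most of them long. A pseudogene that held a member was a median of 2973 bp long, against 1686 bp for all 4843. The share of spans with a GRF3-only summit was 3.68% up to 1000 bp of length, 8.45% up to 2000 bp, 13.7% up to 4000 bp, 22.8% up to 8000 bp and 46.4% beyond. Per Mb of span the members were spread almost evenly over these lengths, at 63.1, 63.1, 58.8, 64.7 and 69.6. Within a span the summit was in the left, middle and right part of equal length in 236, 188 and 232 members. The annotation table gives no strand, so left and right are map directions and not gene ends.

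Transcribed pseudogenes carried few members. Of 926 spans with this biotype 25 held a GRF3-only summit (2.70%), against 500 of 3917 other pseudogenes (12.8%). Transcribed pseudogenes were shorter, at a median of 782 bp against 2043 bp, and 37.8% of them lay within 2.5 Mb of the window, against 76.8%. Among spans in that zone the shares were 3.14% and 14.0%. The 28 members in transcribed pseudogenes included 6 found in all 3 libraries, in AT3G22492, AT4G06489, AT2G13410, AT3G60955, AT4G06597 and AT5G30420. AT2G13410 (chr2:5580137-5581528) had folds of 2.98, 2.51 and 2.71, and AT5G30420 (chr5:11533471-11533855) had 1.99, 2.24 and 2.36 in replicates 1, 2 and 3.

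Few of these pseudogenes have a name beyond the locus number. The table gives a symbol to 67 of all 4843 spans and to 5 of the 525 with a member. Sadhu elements, listed as non-coding retrotransposons, numbered 16, of which 3 held a member, all in 2 libraries: SADHU8-1 (AT1G50735, folds 2.71 and 1.86 in replicates 1 and 3), SADHU1-1 (AT2G10410, 2.38 and 2.03 in replicates 2 and 3) and SADHU5-1 (AT4G01525, 2.72 and 2.61 in replicates 2 and 3). Of 12 cytochrome P450 pseudogenes 1 held a member, CYP76C8P (AT3G60955), with folds of 1.98, 2.20 and 2.32 in replicates 1, 2 and 3. Of 2 dynamin-related pseudogenes 1 held a member, DRP4D (AT1G60510), with 2.21 and 2.53 in replicates 1 and 3. None of the 6 MUSTANG spans held one. No span in the table is named as a gypsy or copia element, so members could not be sorted by transposon class.

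Several members often shared a pseudogene or a neighbourhood. Of the 525 spans, 426 held 1 member, 72 held 2, 21 held 3, 5 held 4 and AT2G01029 held 5. Another member was within 10 kb of 422 members (64.3%), which formed 145 runs, and 234 members stood alone. Runs of 5 or more numbered 19. On chromosome 1, 6 members in AT1G37190, AT1G37200 and AT1G37210 filled 12.6 kb, with mean folds of 2.30 to 2.81. On chromosome 4, 7 members in AT4G08111, AT4G08113, AT4G08114 and AT4G08115 filled 21.9 kb, with mean folds of 2.40 to 3.07. In AT5G28263, a span of 15195 bp, 4 members lay in a row and all were found in GRF3 replicates 2 and 3 only: the folds were 3.04 and 3.48, 3.498 and 3.73, 3.73 and 4.23, and 3.54 and 3.24. Members that share a span are not independent of each other.

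The largest run lay far from the gene-poorest window, at the left end of chromosome 2, the end that carries an array of ribosomal RNA genes. There 13 members lay between positions 15192 and 66299, in 6 of the 9 pseudogene spans of the first 100 kb, and 10 of the 13 were found in all 3 libraries. The run itself was 10 of these members in 22.6 kb. AT2G01029, with a span of 10188 bp, held 5 members of the run. Its strongest member (chr2:35511-35908) had folds of 3.16, 3.97 and 5.44 in replicates 1, 2 and 3 (4.19 ± 1.16, SD, n = 3), and the member at chr2:28475-29385 had 2.99, 3.46 and 4.29 (3.58 ± 0.66). Replicate 3 was highest at both. Over the 13 members the mean fold had a median of 2.98. A single GRF1 library had a peak at 5 of the 13, and 7 other GRF3-only regions lay in the same 100 kb.

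Of the 15 members with a mean fold of at least 4, 6 had a protein-coding gene within 1 kb of the summit and 9 did not. Most members were far from such genes, at a median of 9.14 kb, and 34 (5.18%) had one within 1 kb or overlapping the summit. The 6 members with the summit 280 to 360 bp outside a protein-coding span all had a mean fold of at least 4 and peaks in all 3 libraries; this band was chosen after the values were seen. Their mean folds ran from 4.64 to 9.77 with a median of 6.69. The 24 members from 360 to 1000 bp away ran from 1.70 to 3.42 (median 2.504), and none reached 4. The 1 member closer than 280 bp but outside a protein-coding span had a mean fold of 2.27. Other GRF3-only regions outside a protein-coding span had a median fold of 7.96 up to 280 bp away (194 regions) and 8.33 from 280 to 360 bp (101 regions). From 360 to 1000 bp it was 2.63 (31 regions), and with the summit inside such a span it was 2.41 (643 regions). The differences between bands were not tested.

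The strongest of all members lay in the transcribed pseudogene AT3G22492 (chr3:7970890-7971335), 303 bp from the protein-coding gene AT3G22490. Its folds were 9.78, 9.35 and 10.2 in replicates 1, 2 and 3 (9.77 ± 0.42, SD, n = 3), and the summits of the libraries were 4 bp apart. AT4G06489 (chr4:3116107-3116841), 302 bp from AT4G06490, had 7.55, 7.59 and 9.85 (8.33 ± 1.32). AT4G09710 (chr4:6132287-6132777), 297 bp from RABG3A, which encodes a small Rab GTPase of vesicle traffic, had 7.65, 7.40 and 9.30 (8.12 ± 1.03). In every library these 3 stood well above that library's upper quartile of member peaks, 2.58, 2.68 and 3.11 in replicates 1, 2 and 3.

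The other members of that band were weaker. AT3G43681 (chr3:15583827-15584552), 323 bp from AT3G43682, had folds of 4.93, 4.94 and 5.93 (5.26 ± 0.58). AT3G17050 (chr3:5816085-5816528), 355 bp from AT3G17060, had 3.40, 4.62 and 5.94 (4.65 ± 1.27). AT5G27190 (chr5:9570720-9571108), 312 bp from ACP5, which encodes an acyl carrier protein that holds growing fatty acid chains, had 4.44, 4.43 and 5.06 (4.64 ± 0.36; SD, n = 3 each). Replicate 3 was highest at all 6 members of the band. The same pseudogenes AT3G43681 and AT5G27190 each held 2 further members, at mean folds of 2.38 and 2.32 and of 2.18 and 2.36.

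**Figure D5:**
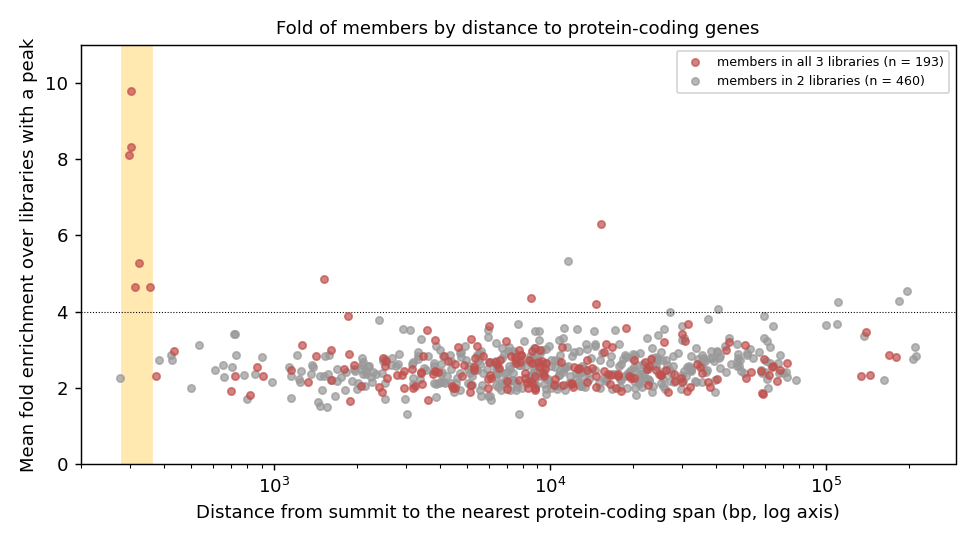
Mean fold over the GRF3 libraries with a peak against the distance from the summit to the nearest protein-coding span (bp, log axis), for members in all 3 libraries (red) and in 2 libraries (grey); the 3 members with the summit inside a protein-coding span are not drawn. The shaded band, 280 to 360 bp, holds 6 members, all above the dotted line at a fold of 4, while 9 of the remaining members reach that line.

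Away from genes, 9 members reached a mean fold of 4, and 4 of these were in all 3 libraries. AT2G11650 (chr2:4677491-4677982), 0.322 Mb from the gene-poorest window and 15.2 kb from the nearest protein-coding gene, had folds of 5.61, 5.82 and 7.47 in replicates 1, 2 and 3 (6.30 ± 1.02, SD, n = 3). AT1G43830 (chr1:16585810-16586248) had 4.06, 4.77 and 5.70 (4.84 ± 0.82). A second member in the same span, AT1G43830 (chr1:16588231-16588560), had 2.31, 2.28 and 2.77, so strength differed inside 1 pseudogene. AT5G28110 (chr5:10110648-10110930) had 3.40, 4.46 and 5.20, in a run of 5 members with AT5G28100 and AT5G28120 over 8.39 kb. AT5G28120 (chr5:10113713-10114035) had 4.84 and 5.81 in replicates 2 and 3 and no peak in replicate 1.

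At 3 members the summit was also inside a protein-coding span that overlaps the pseudogene: AT1G11265 with AT1G11270, AT1G50810 with AT1G50820 and AT2G11140 with AT2G11035. All 3 were found in replicates 2 and 3 only, with mean folds of 2.15, 2.00 and 2.03. Such members could be counted with either gene. At the edge of the rule, 109 members had the summit within 200 bp of the edge of the span, and 25 other GRF3-only regions had it within 200 bp outside a span; their median folds were 2.45 and 2.37. Nearest to the edge on the inside was AT3G31945, by 1 bp, with a mean fold of 2.17; nearest on the outside, by 7 bp, was a region beside AT3G43433 with 9.43.

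The members nearest to the window's centre and those farthest from it had similar folds. AT4G06575 (chr4:3546570-3546941), 0.00328 Mb from the centre, had 2.11 and 2.27 in replicates 2 and 3. AT2G12385 and AT5G30450, 0.00645 and 0.00955 Mb from it, had mean folds of 2.56 and 2.14. The farthest were 2 members in AT4G32220, at 12.0 Mb, with mean folds of 2.497 and 2.54, and 1 in AT1G11265, at 11.5 Mb.

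The place of members follows in part from the rule, since pseudogene spans lie near the window. The exact permutation test of distance over libraries (two-sided, p = 0.25, the smallest that 3 libraries allow) therefore decides nothing about it. Member peaks lay a median of 1.26, 1.09 and 1.13 Mb from the window in GRF3 replicates 1, 2 and 3, and peaks of the others 7.05, 5.86 and 6.33 Mb. Over all pseudogene spans in the annotation the median distance was 1.53 Mb. Members in replicates 2 and 3 only were closest in, at a median of 1.05 Mb with 87.0% within 2.5 Mb, and those in replicates 1 and 3 only were at 1.53 Mb with 72.3%.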

How the data were processed

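ChIP-seq peak lists of 6 libraries were used. Per the submitters' processing notes, FastQC, Trimmomatic, Bowtie2, MACS2 and the build TAIR10 were used; neither versions and settings nor the control used in peak calling are stated. Each deposited list (1 per library) holds a score, a fold enrichment (ratio) and, on a −log10 scale, a p-value and q-value per peak. Fold and q are the authors' values, and no depth is given. Regions and summits were computed with python 3.11.15, and the member rule was checked on simulated lists. A library's value for a region was its widest peak there. Gene spans and biotypes came from a RefSeq table of TAIR10.1 (no strand or exons), used for names and neighbours; printed coordinates are the files' (TAIR10, counted from 1), and distances assume that both builds number chromosomes 1 to 5 alike. The window slid by 50 kb. It is a stand-in, and may lie off the true centromere. Tests were exact permutation tests over libraries, by sign flips. The labels describe 3 replications in blocks but do not say whether libraries came from separate harvests, so p-values measure only the spread between libraries. Members, lists and bands were chosen with earlier results of these data known. The naming rule (all 3 libraries, the 10 highest fold ranks, the widest, narrowest, nearest and farthest, transcribed pseudogenes, single-library GRF1 peaks, a coding gene within 1 kb, shared spans) took in 446 members, so those in the text are a part of them, and runs were named after their values were seen. No genome sequence was used, so the planned motif search was not run.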

Additional observations from a re-analysis of the deposited data

How the results depend on the processing

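The number of members depended most on the threshold and on GRF3 replicates 2 and 3. It was 359 at a −log10 q of at least 5, 15 at a fold of at least 4, 193 with GRF3 regions in all 3 libraries and 193 with lists of equal length. Leaving out 1 library gave 221 to 735 members. The share of GRF3-only regions inside pseudogenes was 3.84% at a fold of at least 4, 27.5% in all 3 libraries and 27.5% with equal lists, and 27.1% to 39.9% without 1 library. The share of members within 2.5 Mb stayed between 79.1% and 85.3% without 1 library. The median distance of members, 1.18 Mb, was 0.966 Mb with a 2 Mb window and 1.16 Mb with a 500 kb window. The GRF3 minus GRF1 difference in the share of summits inside pseudogenes, 13.8 points, was 3.04 at a fold of at least 4, 8.48 to 18.4 without 1 library, and 13.8 with a replicate block, which cannot change a mean of pairs. Width reversed, with members wider by 37.3 bp at a fold of at least 4, by 3 bp in all 3 libraries, by 1 bp without GRF3 replicate 2 (-49.8 bp without replicate 3) and, chosen after seeing the data, by 44.7 bp against others farther than 1 kb from coding spans; the cause was not tested. The difference in fold rank (-44.3 to -26.6 points without 1 library) kept its sign in all alternatives run. So did the difference in distance (-5.81 to -4.55 Mb), whose direction the rule largely sets. In exact permutation tests p was 0.25 with 3 GRF3 libraries and 0.5 with 2, in each case the smallest that this number of libraries allows. Depth is unknown, so a region missing from a list cannot be told from one too shallow to call.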

Other observations

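A few members had peaks in GRF3 replicates 1 and 2 and none in replicate 3, the longest list. AT2G07717 (chr2:3421335-3421754) had a mean fold of 1.312, close to the lowest of all members, 1.309, with 1.35 and 1.27 in replicates 1 and 2. On chromosome 3, 3 transcribed pseudogenes within one neighbourhood also had peaks in these 2 replicates only: AT3G22232 (chr3:7850003-7850252) had 2.91 and 2.79, AT3G22234 (chr3:7852923-7853156) 1.58 and 1.48, and AT3G22238 (chr3:7862017-7862243) 1.5 in both replicates. Over all 23 members found in replicates 1 and 2 only, the median fold was 2.17 and the median width 308 bp, and 17 of them (73.9%) were within 2.5 Mb of the gene-poorest window. They were 3.51% of members, while such regions were 7.39% of other GRF3-only regions. These members were picked out after their values were seen.

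The 107 GRF3 regions inside pseudogenes that overlapped a GRF1 region had a median fold of 2.59 and a median width of 619 bp, and 62.6% were in all 3 GRF3 libraries; 85.0% lay within 2.5 Mb of the window. The 45 GRF1-only regions inside pseudogenes had a median GRF1 fold of 2.03 and a median width of 431 bp, with 13.3% in all 3 GRF1 libraries and 82.2% within 2.5 Mb.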
